A study of Mus musculus with 4 samples.

Results

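A set of 10 genes that write, maintain, erase or protect DNA methylation was read from the RNA sequencing of mouse embryonic stem cells with and without mutation of the chromatin remodeler gene Chd2. They were chosen by name: Dnmt1, Dnmt3a, Dnmt3b, Dnmt3l, Uhrf1, Tet1, Tet2, Tet3, Tdg and Zfp57. All 10 were found among the 23309 gene names of the deposited table. The cells were pluripotent lines of the 129/Ola strain, at passages 10 to 20, grown on gelatin with 10% fetal bovine serum and 1000 U/ml leukemia inhibitory factor. The 2 genotypes were wild type and Chd2 mut/mut, the latter titled Chd2KO, and each had 2 libraries marked lot 1 and lot 2. The labels name no clone and do not say whether the lots were separate cultures, so the spread behind any test of the genotypes may be technical. The study asked how the mutation alters RNA levels in undifferentiated cells. Because the table holds 1 FPKM value (fragments per length of transcript, relative to all fragments mapped) for each gene and genotype, no value given here has a replicate error. A gene is called where the authors' deposited table gives it a q-value (a p-value adjusted over genes) under 0.05.

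In mammals methyl groups are placed mainly on cytosines followed by guanine (CpG). Dnmt3a and Dnmt3b methylate unmethylated CpGs, with Dnmt3l as a cofactor that has no catalytic activity of its own. At replication Uhrf1 binds hemimethylated CpGs and recruits Dnmt1, which copies the mark to the new strand. The TET enzymes oxidise 5-methylcytosine, and the glycosylase Tdg excises the further oxidised forms so that base excision repair restores cytosine. Zfp57, a KRAB zinc finger protein, binds a methylated motif at imprinting control regions and keeps their methylation through early development. Embryonic stem cells in serum are known for high de novo activity together with Tet1 and Tet2.

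The promoters of these genes differ in CpG content, the substrate of the enzymes, and 3 of them are printed here for the most abundant member, its catalytic partner Dnmt3b and the CpG-richest case. Each is the 250 bases before a RefSeq transcription start in build GRCm38.p6, 5′ to 3′ on the strand of the gene, with every CpG in capitals. Windows without any annotated exon base were used, at chr10:78049592-78049841 on the plus strand for Dnmt3l, chr2:153649199-153649448 on the plus strand for Dnmt3b and chr3:133544391-133544640 on the minus strand for Tet2.
Dnmt3l: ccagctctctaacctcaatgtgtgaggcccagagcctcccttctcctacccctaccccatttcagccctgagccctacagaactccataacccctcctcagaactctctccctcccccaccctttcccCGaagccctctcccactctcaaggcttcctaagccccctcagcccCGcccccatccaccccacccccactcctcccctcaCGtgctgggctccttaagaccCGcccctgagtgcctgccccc
Dnmt3b: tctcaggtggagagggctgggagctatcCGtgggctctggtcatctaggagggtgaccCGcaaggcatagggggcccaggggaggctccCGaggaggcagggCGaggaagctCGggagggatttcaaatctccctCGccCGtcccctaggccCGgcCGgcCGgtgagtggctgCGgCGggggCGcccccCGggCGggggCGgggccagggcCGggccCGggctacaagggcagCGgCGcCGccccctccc
Tet2: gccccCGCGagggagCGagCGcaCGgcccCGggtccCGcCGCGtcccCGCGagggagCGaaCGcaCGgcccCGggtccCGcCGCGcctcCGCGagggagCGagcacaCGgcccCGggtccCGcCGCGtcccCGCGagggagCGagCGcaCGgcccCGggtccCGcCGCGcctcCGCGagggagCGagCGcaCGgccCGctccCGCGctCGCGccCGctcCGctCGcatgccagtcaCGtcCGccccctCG
The Dnmt3l window held 4 CpGs, and 62.2% of the 32851 RefSeq windows of the same length held at least as many. The Dnmt3b window held 21, reached by 16.3% of windows, and the Tet2 window held 51, reached by 0.067%. All 10 genes matched the RefSeq table, with 19 windows in all. Unlike the 3 printed, some of these hold annotated exon bases. Of the 250 bases, 174 were exonic for Tet3, 100 for Tet1, 166 for the CpG-richest Dnmt1 window and all 250 for 1 Zfp57 window. The 3 annotated starts of Dnmt3l had 3 to 5 CpGs and the 3 of Zfp57 had 3 to 7, around the median of 6 over all windows. Tet1, Tet3 and Tdg, with 1 listed start each, had 15, 17 and 19. The starts of Dnmt3a ranged from 15 to 40, those of Dnmt1 from 2 to 26, and those of Uhrf1 were at 10 and 30. A CpG count describes these letters only. Which start was used and whether it was methylated were not analysed here.

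The label of the cells was checked against marker genes. Where a pair of values is given, wild type comes before mutant. All 18 naive embryonic stem cell markers had a mean of at least 1 FPKM, with Pou5f1 at 1032 and 1071 FPKM. Of 14 fibroblast markers 4 reached that mean, of 11 primitive endoderm markers 4 and of 10 trophoblast markers 5. The fibroblast list summed to 23.7 and 21.0 FPKM, the primitive endoderm list to 134 and 127 FPKM, with Sparc at 115 and 106 FPKM, and the trophoblast list to 44.6 and 47.9 FPKM. In the fibroblast list Thy1 was at 14.2 and 11.5 FPKM and Fbln1 at 5.08 and 5.43 FPKM. Twist1 was at 2.35 and 2.93 FPKM and S100a4 at 1.55 and 0.767 FPKM. In the same list Col3a1, Fap, Lum and Postn were listed at 0 in both genotypes. The highest trophoblast markers were Krt8 at 19.8 and 22.5 FPKM and Krt18 at 9.51 and 10.99 FPKM. Chd2 itself was at 10.2 and 5.69 FPKM, with a q-value of 0.0103 in the authors' deposited table.

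None of the 10 DNA methylation genes was called between the genotypes. In the authors' deposited table their smallest q-value was 0.427, that of Tet1, and 7 of the 10 had a q-value above 0.9. Of the 10766 genes whose mean reached 1 FPKM, 75 or 0.697% were called, so that a count of 0 among the 9 members that reach this mean is near the background. No member passed a q of 0.2, which 1.41% of those genes did, and none differed by 1.5-fold or more, which 3.75% did. The table gives no unadjusted p-values, and no other test could be run on it. Tet1 and Dnmt1 were listed higher in the mutant, Tet1 by 1.27-fold and Dnmt1 by 1.01-fold, and the other 8 were listed lower by 1.03-fold to 1.25-fold.

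The levels of the 10 genes spanned a wide range. Dnmt3l was 1269 times Tet3 in wild type and 1495 times Tet3 in the mutant. In wild type the order from the highest was Dnmt3l, Uhrf1, Zfp57, Dnmt3b, Dnmt1, Tdg, Tet1, Dnmt3a, Tet2 and Tet3. In the mutant Tet1 and Tdg changed places, and the other 8 kept their rank. Uhrf1, Zfp57 and Dnmt3b lay close together, with Uhrf1 1.10 times Zfp57 and Zfp57 1.07 times Dnmt3b in wild type. Without values per library it cannot be said which neighbours in this order differ beyond their spread.

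**Figure D1:**
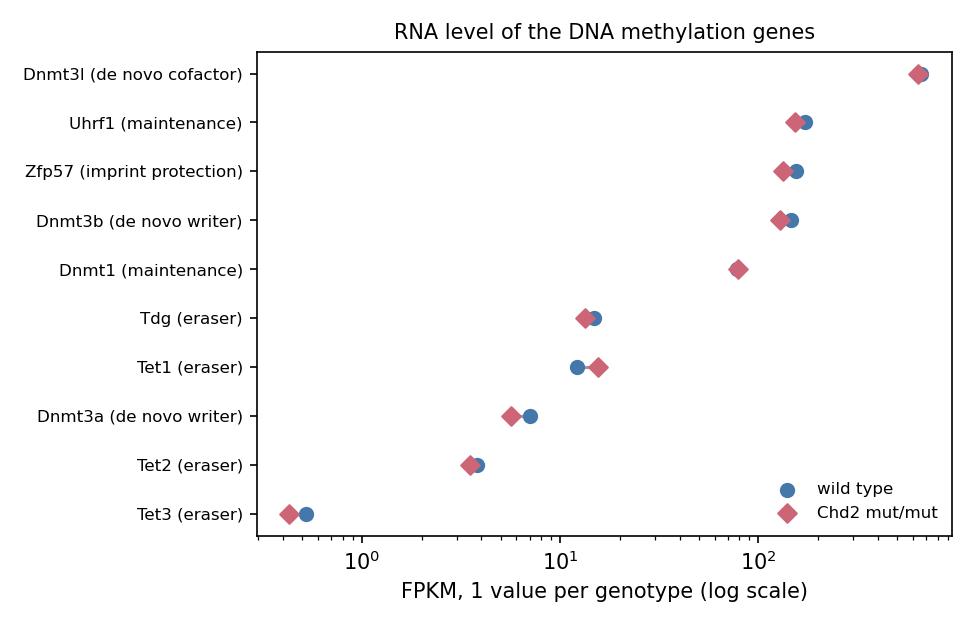
RNA level of the 10 DNA methylation genes in FPKM on a log axis, with 1 point per genotype (circle, wild type; diamond, Chd2 mut/mut) and genes ordered by the wild-type value. The largest gap between the genotypes is the 1.27-fold of Tet1, and the genes run from about 0.5 FPKM for Tet3 to 659 FPKM for Dnmt3l in wild type.

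Among the de novo factors, Dnmt3l was the most abundant. Its level was 659 FPKM in wild type, against 640 FPKM in the mutant, within the top 0.768% and 0.777% of all listed genes. Its q-value was 0.998 in the authors' deposited table. Dnmt3b, the main de novo enzyme of these cells by RNA level, was at 146 and 128 FPKM, and its q-value there was 0.931. Dnmt3a was much lower, at 7.05 and 5.64 FPKM. This 1.25-fold lower value was the largest decrease among the 10 genes, with a q-value of 0.556 in the authors' deposited table. Dnmt3b exceeded Dnmt3a 20.6-fold in wild type and 22.7-fold in the mutant. Dnmt3l made up 81.2% of the summed FPKM of the 3 genes in wild type and 82.7% in the mutant, Dnmt3b 17.9% and 16.5%, and Dnmt3a 0.869% and 0.729%. The ratio of the cofactor to its catalytic partners together was 4.32 and 4.79.

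Neither gene of the maintenance pair was called. Dnmt1 was at 77.7 and 78.5 FPKM, with a q-value of 0.998 in the authors' deposited table. Uhrf1, which brings Dnmt1 to replicated DNA, was at 171 and 153 FPKM, with a q-value of 0.95. Uhrf1 was thus 2.20 times Dnmt1 in wild type and 1.95 times in the mutant. Its paralog Uhrf2, from the list of maintenance partners, was at 11.5 and 10.0 FPKM. Uhrf1 exceeded it 14.9-fold in wild type and 15.3-fold in the mutant.

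Among the erasers, Tet1 had the largest difference of the 10 genes. The wild-type level was 12.2 FPKM and the mutant level 15.5 FPKM. Its log2 fold change was 0.35 in the authors' deposited table, with the q-value of 0.427 given above. Tet2 was at 3.80 and 3.51 FPKM, with a q-value of 0.998. Tet3, known mainly from the oocyte and zygote, was at 0.52 and 0.428 FPKM, with a q-value of 1, and was the 1 member under a mean of 1 FPKM. Tdg was at 14.9 and 13.3 FPKM, with a q-value of 0.998. In the summed FPKM of the TET genes, Tet1 took 73.8% in wild type and 79.7% in the mutant, Tet2 23.0% and 18.1%, and Tet3 3.15% and 2.21%. Tet1 was 3.20 times Tet2 in wild type and 4.41 times in the mutant. The catalytic methyltransferases Dnmt1, Dnmt3a and Dnmt3b together summed to 230.4 and 212 FPKM, which was 14.0 times the TET sum in wild type and 10.9 times in the mutant. These shares and ratios carry no error and were not tested.

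**Figure D2:**
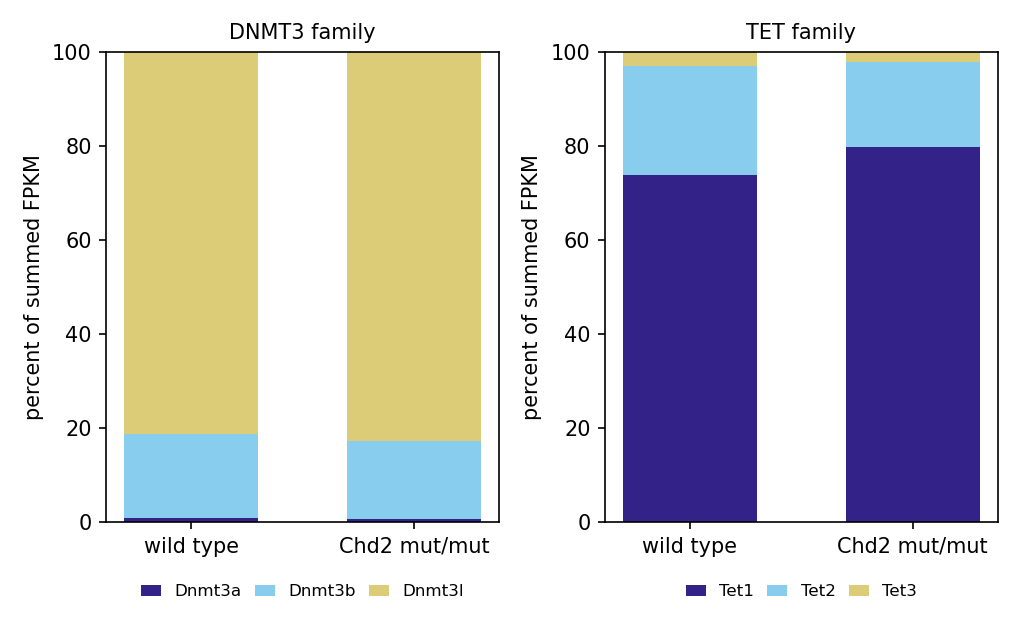
Share of each gene in the summed FPKM of its family, in percent, for wild type and Chd2 mut/mut, with stacked bars from 0 to 100 (left, DNMT3 genes; right, TET genes). Dnmt3l forms over 80% of the DNMT3 sum in both genotypes, and the Tet1 part of the TET sum is 73.8% in wild type and 79.7% in the mutant.

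Zfp57 had a wild-type level of 155 FPKM and a mutant level of 132 FPKM. Its q-value in the authors' deposited table was 0.808. The mutant value was 1.17-fold lower. Trim28, the corepressor through which KRAB zinc finger proteins act, was at 1044 and 973 FPKM and had the highest level in the list of imprint protection factors.

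The changes were small beside those that were called. Pdzd4 had the smallest change of any called gene, 1.42-fold, at 38.4 and 54.6 FPKM, with a q-value of 0.0434 in the authors' deposited table. All 10 DNA methylation genes lay under that fold, with Tet1 the nearest at 1.27-fold. Within the range of mean FPKM spanned by the 9 members, 54 genes were called, with a median change of 1.72-fold. Between 5 and 20 FPKM, where Tet1, Tdg and Dnmt3a lie, the smallest called change among 28 calls was 1.51-fold. Between 100 and 1000 FPKM, where Dnmt3l, Uhrf1, Zfp57 and Dnmt3b lie, it was 1.504-fold among 5 calls. No gene of the table with a change as small as those of these 10 genes was called, so their q-values do not show that they were unchanged.

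**Figure D3:**
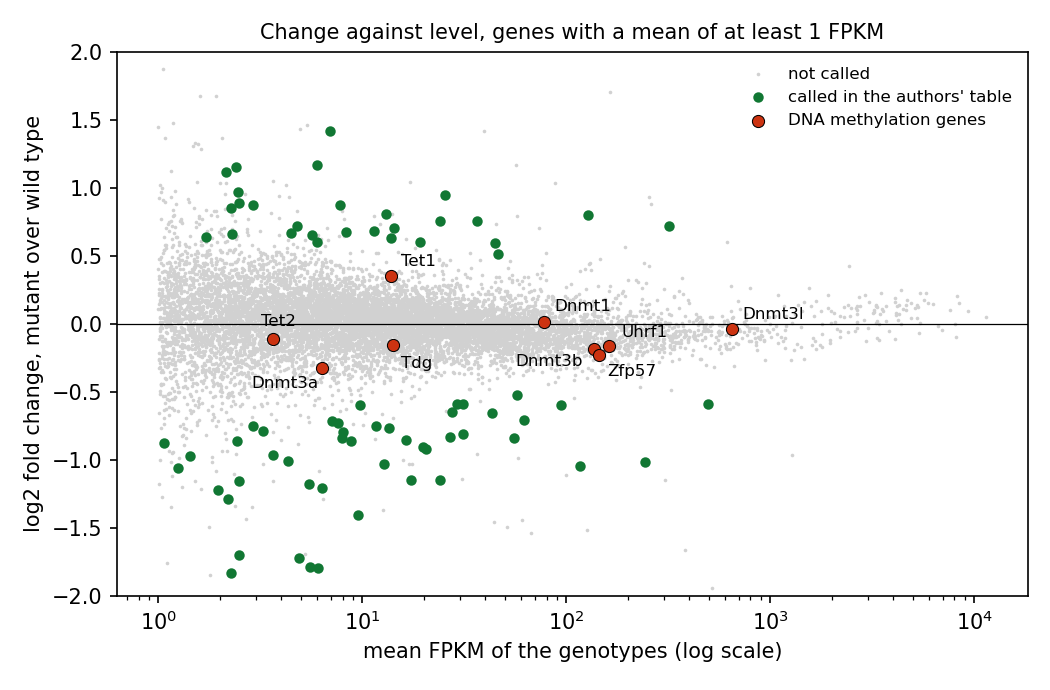
The authors' log2 fold change (mutant over wild type) against the mean FPKM on a log axis for genes whose mean reached 1 FPKM, with grey for genes not called, green for called genes and red for the 9 DNA methylation genes that reach this mean. The vertical axis ends at 2 in either direction and leaves out 64 genes, and the red points lie between Dnmt3a at -0.32 and Tet1 at 0.35, inside the band free of calls.

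When the wild-type log2(FPKM + 1) was subtracted from that of the mutant, 7 of the 9 members with a mean of at least 1 FPKM lay below 0 and 2 above. Their median difference was -0.15, beside -0.0012 over the 10766 genes of that level, of which 50.4% lay below 0. The members' differences ran from -0.28 for Dnmt3a to 0.32 for Tet1. An absolute difference at least as large as that of Tet1 was found in 7.49% of these genes, and one at least as large as that of Dnmt3a in 10.7%. For Zfp57 this share was 16.4%, for Dnmt3b 24.2%, for Uhrf1 29.9%, for Tdg 33.8%, for Tet2 55.6%, for Dnmt3l 77.6% and for Dnmt1 92.3%. Tet3, under that mean, had a difference of -0.09. The median of the group is a description with no test.

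Other genes of the pathway were read from 8 lists, with the 10 members left out. The list of de novo methylation factors then held 2 genes, neither found in the deposited table, so it added none. Of 106 genes found, 96 had a mean of at least 1 FPKM. None of the 96 was called, beside 0.697% of all genes of that level, so a count of 0 is near the background. The median difference was -0.0035, with 47 genes above 0 and 49 below. Dnmt3c, a rodent-specific de novo enzyme of the male germ line, is named only, since no row carried its symbol.

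The 10 partners of maintenance had a median difference of -0.03, with 4 above 0 and 6 below. The replication clamp Pcna was at 715 and 696 FPKM in wild type and mutant. Hells, a remodeler needed for methylation of repeats, was at 172 and 169 FPKM. Baz2a had the largest difference above 0, at 33.1 and 35.6 FPKM. The 16 further genes of oxidation and repair had a median of -0.08, with 5 above 0 and 11 below. Parp1, which senses DNA breaks, was at 202 and 201 FPKM, and the uracil glycosylase gene Ung at 92.1 and 84.9 FPKM. Gadd45a, a stress-induced gene linked to demethylation, had the largest difference below 0 at 22.0 and 16.9 FPKM, with a q-value of 0.603 in the authors' deposited table. The repair glycosylase gene Neil2 had the largest above 0, at 1.06 and 1.33 FPKM.

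The 13 other imprint protection factors had a median of 0.0041, with 9 above 0 and 4 below. Setdb1, the H3K9 methyltransferase recruited by Trim28, was at 28.6 and 25.6 FPKM, and Dppa3, which protects methylation in the zygote, at 18.8 and 20.9 FPKM. The 7 genes listed as methyl-CpG readers had a median of 0.07, with Mbd3, a subunit of the NuRD complex, at 160 and 158 FPKM. Whether each listed gene binds methylated CpG was not examined. Mbd2, which binds methylated CpG, was at 7.41 and 6.27 FPKM, and Zbtb33, which encodes Kaiso, at 3.82 and 4.64 FPKM. The 17 regulators of Dnmt3 targeting had a median of 0.04. In that list Dppa2 was at 83.3 and 73.1 FPKM, its partner Dppa4 at 123 and 121 FPKM, the RNA-binding Lin28a at 142 and 160 FPKM, and Mycn at 41.9 and 50.2 FPKM. All of these values were uncalled and lay on either side of 0.

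Genes of the methyl donor cycle and of the TET co-substrate held no call, which is near the background of 0.697% over all genes whose mean reached 1 FPKM. Ahcy, which clears S-adenosylhomocysteine, was at 267 and 232 FPKM in wild type and mutant, and Mat2a, which makes S-adenosylmethionine, at 179 and 179.8 FPKM. The 18 genes of this cycle had a median difference of -0.03, between Shmt2 of mitochondrial one-carbon metabolism at 99.3 and 80.4 FPKM and Gcat at 29.5 and 33.3 FPKM. The 15 genes around 2-oxoglutarate, the co-substrate of the TET enzymes, had a median of 0.0051. Glud1 was the highest of them at 183 and 186 FPKM, followed by Idh3b at 121 and 114 FPKM. Fh1, which encodes fumarate hydratase, had the largest difference below 0 at 71.5 and 60.8 FPKM.

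Genes known for control by DNA methylation held 2 calls, both lower in the mutant. They were 1 of 13 germline genes (7.69%) and 1 of 30 imprinted genes (3.33%) whose mean reached 1 FPKM. Over all genes of that level 0.697% were called in either direction and 0.437% were called lower. The lists were chosen with earlier results of these data known, and the counts were not tested. In the list of germline genes known for silencing by promoter methylation, 13 of the 28 found reached a mean of 1 FPKM. Of these, 5 lay above 0 and 8 below, and the median was -0.09. Whether their promoters were methylated in these cells was not analysed here. Tuba3a, an alpha-tubulin gene of the testis, was the 1 called. It fell 2.26-fold, to 3.37 FPKM from 7.62 FPKM, with a q-value of 0.0103 in the authors' deposited table. Its near-identical copy Tuba3b was listed at 0.0267 and 0.0514 FPKM, and the sources used here do not say how reads were divided between such copies, so the value is uncertain. The germ cell helicase gene Ddx4 had the largest difference above 0, at 5.30 and 6.65 FPKM, uncalled. The most abundant genes of the list were Rpl10l at 41.8 and 38.6 FPKM and Mageb16 at 28.7 and 27.6 FPKM.

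Of 46 imprinted genes, the class whose control regions Zfp57 protects, 30 reached a mean of 1 FPKM. The call was Mest, expressed from the paternal allele, whose level dropped 3.47-fold (9.42 and 2.72 FPKM), with a q-value of 0.0103 in the authors' deposited table. Imprinted genes lay on both sides of 0, with 18 of the 30 above, 12 below (Mest included) and a median of 0.03. The largest differences below 0 were those of Mest, at -1.49, and of Nnat, at -1.10 and uncalled. Gnas was at 107 and 141 FPKM, Phlda2 at 101 and 111 FPKM, and Slc22a18, with the largest difference above 0, at 2.59 and 4.57 FPKM. None of these 3 was called. Allele-specific values and methylation were not analysed here, and a link between Zfp57 and these genes was not tested.

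**Figure D4:**
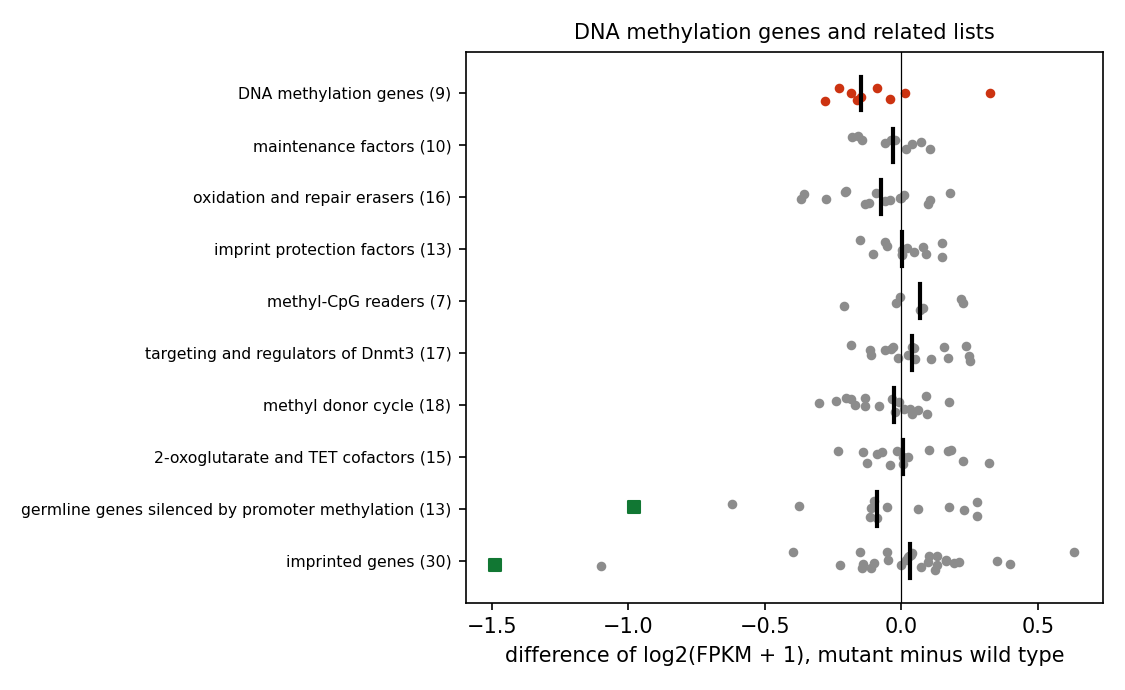
Mutant minus wild-type difference of log2(FPKM + 1) for the 9 DNA methylation genes (red) and for the genes of each related list whose mean reached 1 FPKM (grey; green squares are called genes), with the number of genes in brackets and a black bar at the median. The calls are Tuba3a in the germline list and Mest in the imprinted list, and the DNA methylation genes have their median at -0.15 with Tet1 at 0.32.

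Markers of the naive pluripotent state and those of the primed epiblast both lay mostly on the same side of 0 as Tet1. All 18 naive markers reached a mean of 1 FPKM and had a median difference of 0.13 with 12 above 0 and 6 below, none called. Nanog had the largest difference above 0, at 114 and 150 FPKM, with a q-value of 0.293 in the authors' deposited table. Nr0b1, an orphan nuclear receptor gene, had the largest below 0, at 125 and 96.5 FPKM, with a q-value of 0.327. In the list of primed epiblast markers, which also holds Dnmt3a and Dnmt3b, 9 of 11 genes reached a mean of 1 FPKM, 6 lay above 0 and 3 below, and the median was 0.21. Cldn6, a claudin of early epithelia, was called there and rose 1.505-fold from 35.6 to 53.5 FPKM. This was 1 call in 9 genes (11.1%), beside 0.697% over all genes of that level. The counts of calls among the naive and the primed markers were not tested. The 3 below 0 were Dnmt3a and Dnmt3b, as given above, and Lef1, a transcription factor gene of WNT signalling, which had the largest difference below 0 at 4.06 and 2.72 FPKM, uncalled with a q-value of 0.257. Fgf5 was at 0.233 and 0.312 FPKM. The part of these markers in the values of Tet1 and the Dnmt3 genes was not tested. In cultures of this kind fewer cells of a type and less RNA per cell cannot be told apart.

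In the annotation of build GRCm38 (GENCODE M21) Tet1, Dnmt3l and Tdg lie on chromosome 10 and Uhrf1 and Zfp57 on chromosome 17. Dnmt1 lies on chromosome 9, Dnmt3a on 12, Dnmt3b on 2, Tet2 on 3 and Tet3 on 6. The longest coding transcripts run from 1822 bases for Dnmt3l to 14369 bases for Tet1, with 9179 bases for Tet2 and 10904 bases for Tet3. The annotation holds 3 to 13 coding transcripts per gene, among them 13 for Dnmt3a and 10 for Dnmt3b, and the FPKM does not separate them. The labels do not say whether the libraries kept the strand. For 4 of the 10 genes an exon overlaps an exon of a gene on the opposite strand, and reads of the pair could not be told apart there if the strand was not kept. These are Tdg with 6.83% of its exon bases shared with Glt8d2, Dnmt3l with 2.24% shared with Aire, Dnmt3a with 0.799% shared with Dnmt3aos and Tet2 with 0.255% shared with Gm42567.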

How the data were processed

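RNA from 2 wild-type and 2 Chd2 mut/mut libraries was sequenced, prepared per the labels' protocols with the NEBNext Ultra RNA kit from 1 ug of total RNA. The authors deposited FPKM values, with 1 value per gene and genotype. Further columns deposited by the authors give, per the file headers and for every gene, a log2 fold change, a q-value and whether it was called. All calls of yes, and no others, had a q-value under 0.05. The submitters' processing notes name bcl2fastq 2.17.1.14, TopHat2 2.1.0, Cufflinks and build mm9. The annotation, the test behind the q-value and how the lots were combined could not be read from the sources used here, and depth is unknown. The FPKM summed to 806390 and 809413 over wild type and mutant.

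Changes were computed with pandas 2.3.3 and numpy 2.4.6 as differences of log2(FPKM + 1), mutant minus wild type, over the whole table. This scale understates low genes, and quoted folds are plain FPKM ratios. Genes whose mean reached 1 FPKM were kept for counts. The planned limma fit needs values per library and was not run. The scaling steps were tested on simulated data. The members and lists were chosen with earlier results of these data known. Genes named from a list were drawn from its calls, its 2 most abundant genes and the largest difference in each direction. Not every gene that meets this rule is named. The gene with the largest difference above 0 in 1 list is not reported here. Others (Dnmt3c, Tuba3b, Pdzd4, Fgf5, Nnat and the fibroblast markers at 0) were chosen after their values were seen. GRCm38 annotation, another build than the authors' mm9, was matched by symbol.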

Additional observations from a re-analysis of the deposited data

How the results depend on the processing

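No paired analysis was possible because the table holds 1 value per genotype and no value per lot, and leaving out a lot was not run for the same reason. No member was called at a q under 0.2 or passed a 1.5-fold change. Of 40 values of single members under other scalings or a pseudocount of 0.1, none changed direction and 32 stayed within 1.5 times of the difference on the log2 scale. A pseudocount cannot reverse a direction, and subtracting the median of -0.0012 was too small a shift to do so. Only quantile normalization and the 75th percentile could have reversed a member. With quantile normalization the difference was 0.056 for Dnmt1, -0.12 for Dnmt3b, -0.0191 for Dnmt3l and -0.087 for Uhrf1. Scaled by the 75th percentile it was 0.0546 for Dnmt1, -0.0021 for Dnmt3l and -0.0567 for Tet2. With a pseudocount of 0.1 it was -0.23 for Tet3. The cause of these shifts was not tested. The members' median ran from -0.16 to -0.11 over these settings, without a filter and at a mean of at least 5 FPKM. Under quantile normalization, the only other setting applied to them, all 12 family shares moved by at most 0.28 percentage points. At a q under 0.2 the germline and the imprinted list held 2 calls each. The median of the genes listed as methyl-CpG readers was -0.0209 at a mean of at least 5 FPKM. That of the imprinted genes was -6.12e-05 without a filter. Both were below 0 instead of above, with fewer or more genes entering by construction.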
